A study of Macaca mulatta with 102 samples.

Results

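Cell-free milk and milk fat of 6 lactating rhesus macaques (Macaca mulatta) were compared at day 90 after birth, animal by animal. Of the 34 samples in the series, 12 belong to this comparison: the 6 day 90 samples whose tissue label is FatS10, FatsS10 or Skim10m, taken as cell-free milk, and the 6 day 90 samples labelled Fat. The animals, M1 to M6, were multiparous, prime-aged mothers that nursed male infants and lived in outdoor groups. On the day of collection they were kept from nursing while milk accumulated, then sedated and given oxytocin. Whole milk was spun in a centrifuge, and the fat layer was lifted off as milk fat. No step for making cell-free milk is given in the sources used here, and the tissue labels of these samples do not name it. The label is FatS10 for M1, M2, M5 and M6, FatsS10 for M4 and Skim10m for M3, so that the identity rests on the study's statement that it sequenced as many cell-free milk samples, all from day 90. Whether they are instead another fraction of the milk, or milk drawn at a repeat milking, was not tested, and every value given here for cell-free milk is a value of the samples with these labels. Day 90 milk cells (6 samples) and mammary biopsies (6 samples, from day 30 in M3, M4 and M6 and from day 90 in M1, M2 and M5) served as reference levels.

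Milk fat leaves the mammary epithelial cell as a droplet wrapped in the cell's own membrane, and part of the cytoplasm can be caught between the droplet and the membrane as a crescent. RNA in such crescents comes from the secreting cell without its nucleus, and it can be recovered from the fat layer. Milk also carries whole cells, shed epithelial cells and leukocytes among them, and small vesicles that hold RNA in the watery phase. Secreting cells make caseins and whey proteins, lactose and triglyceride, and the genes for these products fill most of their messenger RNA.

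Abundance was given as FPKM, fragments mapped per kilobase of exon and scaled to library size, for 42701 Ensembl transcripts on the rheMac2 assembly. The 3 sequencing runs of each sample were averaged. Of the 36 runs behind the 12 samples, 36 correlated best with another run of their own sample, and 0 pairs of runs were identical. Relative depth, read from the spacing of low FPKM, was 0.876 to 1.22 of the median sample in cell-free milk and 0.814 to 1.05 in milk fat. Both samples of an animal were sequenced in the same pool (2, 3 or 4, with 2 animals each), so that a difference seen within every animal is also seen within every pool. In bulk RNA of this kind, fewer cells or crescents of a type and less RNA in each cannot be told apart. The p-values below measure the spread between the 6 animals.

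In correlation and PLIN2 level, the Skim10m sample of M3 was neither the highest nor the lowest of the 6 samples taken as cell-free milk. Its mean Spearman correlation over all transcripts with the other cell-free milk samples was 0.934, and the 6 samples, M3 included, ranged from 0.931 to 0.935. Such values cannot show that it is the same kind of sample. Its summed PLIN2 level, given below, also lay inside the range of the others. Cell-free milk correlated with milk fat of the same animal at 0.934 on average (0.924 to 0.941), and with milk fat of other animals at 0.924. The excess of 0.0102 was larger than in all other pairings of the animals (exact permutation test, one-sided p = 0.00139, the smallest that 6 animals allow), and 4 of the 6 cell-free milk samples were closest to the milk fat of their own animal. The same-animal correlation with milk cells was 0.925 on average (0.916 to 0.933). It was below that with milk fat in 5 of 6 animals, by 0.00919 on average.

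PLIN2, the protein that coats cytoplasmic lipid droplets, was lower in cell-free milk than in milk fat in 6 of 6 animals. Its 4 transcripts lie at chromosome 15 (57864460 to 57866618, 58240050 to 58241364 and 57855543 to 57859818) and chromosome 14 (67231622 to 67231997) of rheMac2, and none of them overlaps another transcript. Because copies of a sequence can share reads, the 4 values were added. In milk fat the sum was 26029 at the lowest, 79874 at the median and 98793 FPKM at the highest. In cell-free milk it ran from 11069 over a median of 21215 to 24567 FPKM. Every cell-free milk sample lay below every milk fat sample. The milk fat sum was 2.36 times the cell-free milk sum in M1, 3.26 times in M2, 3.64 in M3, 4.39 in M4, 2.35 in M5 and 4.94 in M6. M5 had the least PLIN2 of both kinds and the smallest ratio, and M3, the Skim10m animal, had 23888 FPKM in cell-free milk and 86884 FPKM in milk fat. In milk cells the sum was 2612 to 4181 FPKM (median 3189), so that cell-free milk also held 4.24 to 7.89 times the level of milk cells of the same animal. Biopsies ranged from 1309 to 2355 FPKM. The order milk fat, cell-free milk, milk cells was thus found in each of the 6 animals. Such a middle place is common. By group means, cell-free milk lay between milk fat and milk cells for 61.6% of the 12730 transcripts tested. The ranges of cell-free milk and milk fat did not overlap for 8.71% of them.

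Across the single PLIN2 transcripts the log2 fold changes from milk fat to cell-free milk were -2.11 (SE, the standard error, 0.22, 95% interval -2.62 to -1.59), -1.88 (0.23), -1.68 (0.22) and -1.65 (0.21). By limma with animal as a block the adjusted p was 0.00306 for the first pair and 0.00319 for the second, and these folds of 4.30, 3.67, 3.20 and 3.13 all passed the 3-fold threshold. The transcript with the largest change (chromosome 15, 57864460 to 57866618) had 10079 to 40922 FPKM in milk fat and 3834 to 8481 FPKM in cell-free milk, with no overlap. Without the filter on low FPKM the fold changes were the same, but the adjusted p of this transcript was 0.0764 and that of the chromosome 14 transcript 0.165. The other 2 kept their call there, and with a filter the 4 transcripts had adjusted p of 0.000898 to 0.014 over the settings.

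PLIN2 held 6.12% ± 2.37 (SD, n = 6) of all FPKM in milk fat, 1.80% ± 0.463 in cell-free milk, 0.318% ± 0.0525 in milk cells and 0.172% ± 0.0478 in biopsies. The share was lower in cell-free milk in each of the 6 animals, with a mean difference of -4.32 percentage points (exact test by flipping the signs of the 6 differences, two-sided, p = 0.031, the smallest possible here, and 0.0417 when adjusted over the 4 shares compared).

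**Figure D1:**
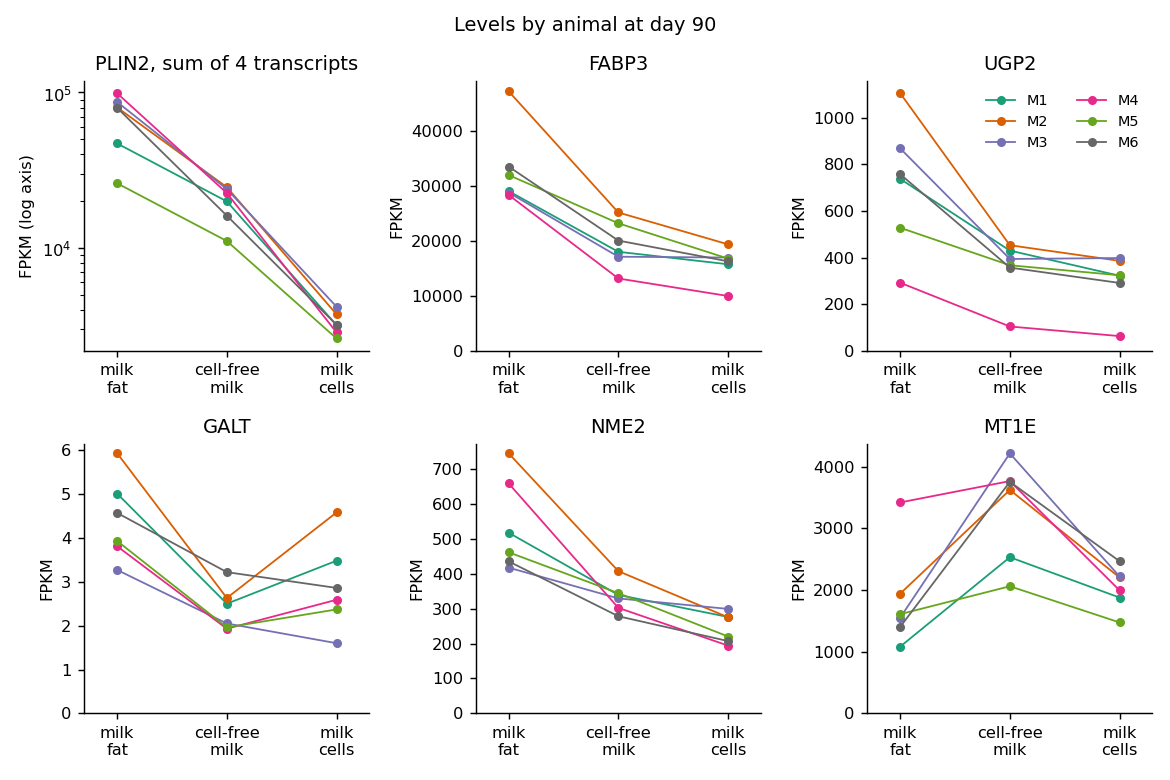
Level in FPKM of the PLIN2 sum (log axis), FABP3, UGP2, GALT, NME2 and MT1E (linear axes from 0) in day 90 milk fat, cell-free milk and milk cells, with 1 point per sample and 1 line per animal. The PLIN2 sum falls along the line in each of the 6 animals, from 26029 or more in milk fat to 4181 or less in milk cells, while MT1E peaks in cell-free milk.

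FABP3, the cytoplasmic carrier of fatty acids in muscle and lactating epithelium, was likewise lower in cell-free milk. Its transcript (chromosome 1, 34144226 to 34145760) had 28313 to 47156 FPKM in milk fat (median 30468) and 13128 to 25122 FPKM in cell-free milk (median 19000), and these ranges do not overlap. The log2 fold change was -0.90 (SE 0.17, limma adjusted p = 0.00587), and the change by animal was widest in M4 and narrowest in M5 (-0.39). In milk cells FABP3 reached 9943 to 19336 FPKM, below cell-free milk in each animal. Its call was lost without the filter on low FPKM (adjusted p = 0.678 at the same fold change) and kept in the other settings, where the adjusted p ran from 0.00184 to 0.0233. FABP3 was the seventh most abundant transcript in both kinds of sample, while its level differed 1.87-fold. Of the 5 transcripts tied to fat globule and fatty acid genes, 5 were lower, with a median log2 fold change of -1.68, but 4 of these are the PLIN2 transcripts, so that the count stands for 2 genes. The median over all 12730 transcripts tested was -0.02. By the same rule 25.6% of all transcripts tested were lower and 21.5% were higher. At 1000 FPKM and over, where all 5 lie, 49.0% were lower and 6.12% higher, at a median of -0.61.

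Of the transcripts tied to enzymes that make the sugar nucleotides for lactose, most were lower in cell-free milk as well. Lactose is formed from glucose and UDP-galactose in the Golgi by lactose synthase, whose catalytic subunit is B4GALT1 and whose regulatory subunit is alpha-lactalbumin (LALBA). Of 8 transcripts of this pathway, 5 were lower, 1 was higher and 2 were not called, with a median log2 fold change of -0.37. Over all transcripts tested, 25.6% were lower and 21.5% higher. Among those at 100 to 1000 FPKM, where UGP2, NME2 and B4GALT1 lie, 70.8% were lower, at a median of -0.58. Other genes that the study names for this pathway are not reported here. The study chose these transcripts on these samples, for comparisons that include milk fat against biopsies. Means in milk fat were above those in biopsies for all of them but B4GALT1 (231 against 308 FPKM). The count is thus not independent of that choice. The largest change was in UGP2 (chromosome 13, 64029084 to 64089013), which makes UDP-glucose. It had 292 to 1106 FPKM in milk fat (median 748) and 104 to 453 FPKM in cell-free milk (median 380.0), and was lower in 6 of 6 animals although the ranges overlap, because M4 was low in both. The change was -1.17 on the log2 scale (SE 0.17, limma adjusted p = 0.00331).

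NME2 (chromosome 16, 35402045 to 35407009), a nucleoside diphosphate kinase, had 417 to 744 FPKM in milk fat and 278 to 407 FPKM in cell-free milk, ranges that do not overlap. Its log2 fold change was -0.79 (SE 0.15, limma adjusted p = 0.00570).

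The enzymes that handle galactose and glucose phosphates were lower too. GALT (chromosome 15, 42873307 to 42877251), which exchanges galactose and glucose between phosphate and UDP, had 3.27 to 5.93 FPKM in milk fat and 1.93 to 3.22 FPKM in cell-free milk, a log2 difference of -0.76 (SE 0.08, limma adjusted p = 0.00306). At this level the 1 FPKM added before taking logs shrinks the difference, which was -0.98 with 0.1 added. Its mean of 2.38 FPKM in cell-free milk was below the mean of 2.91 FPKM in milk cells, so that GALT did not follow the order seen for PLIN2. GALK1 (chromosome 16, 71071239 to 71078734), which phosphorylates galactose, had a log2 difference of -0.47 (SE 0.09, adjusted p = 0.00529). PGM1 (chromosome 1, 66370644 to 66436886), which interconverts glucose phosphates, had 30.6 to 38.3 FPKM in milk fat and 27.1 to 35.8 FPKM in cell-free milk. PGM1 changed by -0.27 (SE 0.06, limma adjusted p = 0.00915), and it was the call that FPKM as deposited, without scaling, took away (-0.15, adjusted p = 0.138, where the other settings gave 0.00257 to 0.0359). A change of this size is common at its level: at 30 to 100 FPKM, 54.0% were lower, at a median of -0.30. At 3 to 10 FPKM, where GALT and GALK1 lie, 21.8% were lower, at a median of 0.02.

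B4GALT1 (chromosome 15, 44063193 to 44118812) went the other way. It had 93.5 to 312 FPKM in milk fat (median 244) and 197 to 385 FPKM in cell-free milk (median 328), and was higher in cell-free milk in 6 of 6 animals. The log2 fold change was 0.42 (SE 0.09, limma adjusted p = 0.00802). This transcript shares its locus with others, 21 transcripts in all, among which the FPKM estimate divides the reads. Summed over the locus, the log2 fold change was 0.19 (adjusted p = 0.0734), and without animal as a block the call was also lost (0.42, adjusted p = 0.245), while the adjusted p in the other settings went down to 0.00649. LALBA (chromosome 11, 45692914 to 45695265) had 84074 to 131964 FPKM in milk fat and 72374 to 129124 FPKM in cell-free milk, with a log2 difference of -0.27 (SE 0.21, 95% interval -0.77 to 0.22, adjusted p = 0.317). CMPK1 (chromosome 1, 50153990 to 50198871), a kinase of pyrimidine nucleotides, had a log2 difference of -0.18 (95% interval -0.34 to -0.03) with the same sign in 6 of 6 animals after scaling, just short of the threshold (limma adjusted p = 0.0514). Summed over its locus CMPK1 was called lower (-0.38, adjusted p = 0.00695), and over the settings its adjusted p ranged from 0.00695 to 0.595.

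**Figure D2:**
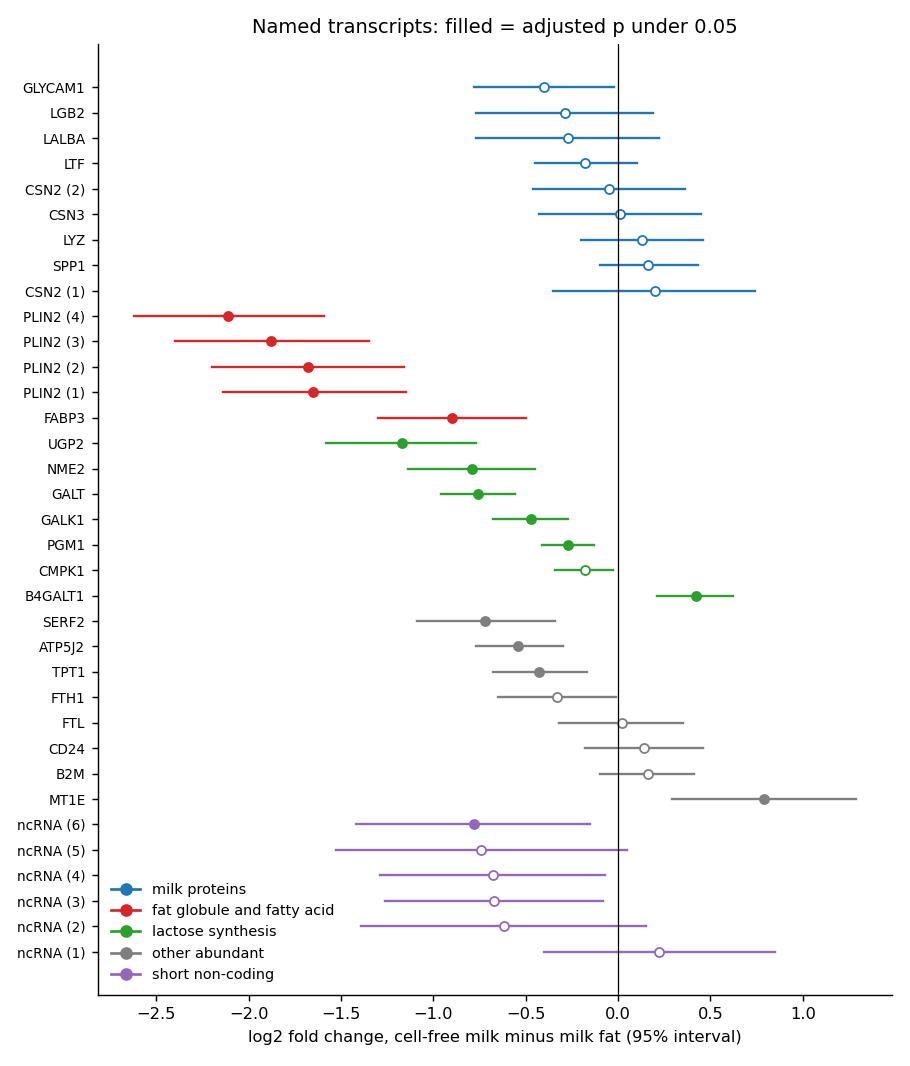
Log2 fold change from milk fat to cell-free milk with its 95% interval for 35 named transcripts, grouped by list. Filled points have an adjusted p under 0.05, and transcripts of the same name are numbered by their order in the plot. The 5 fat globule and fatty acid transcripts lie at the left, from -2.11 to -0.90, while the 9 milk protein intervals lie around 0, and 1 of them (GLYCAM1) ends below 0.

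Of the 9 milk protein transcripts, 0 were called by limma (1 at an unadjusted p under 0.05, GLYCAM1), at a median log2 fold change of -0.05 and a range from -0.40 to 0.20. The count is read against 25.6% lower and 21.5% higher over all transcripts tested. Among transcripts at 1000 FPKM and over, where all 9 lie, 49.0% were lower and 6.12% higher, at a median of -0.61. CSN2, beta-casein, was the most abundant transcript of both kinds. Its larger transcript by level (chromosome 5, 59676470 to 59680187) had 229177 to 363291 FPKM in milk fat (median 332372) and 368058 to 461314 FPKM in cell-free milk (median 377733). As deposited, the ranges do not overlap, but after scaling it was higher in 4 of 6 animals and the log2 fold change was 0.20 (SE 0.24, 95% interval -0.35 to 0.74, limma adjusted p = 0.515). A further CSN2 transcript overlaps it (59676454 to 59681817), and reads may have been split between them. CSN3, kappa-casein (chromosome 5, 59423490 to 59435314), had 44452 to 61978 FPKM in milk fat and 50984 to 70621 FPKM in cell-free milk, a log2 fold change of 0.01 (95% interval -0.43 to 0.45).

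Among the whey protein transcripts the widest difference was in GLYCAM1 (chromosome 11, 51725784 to 51727934), a mucin-like glycoprotein. It had 2569 to 5464 FPKM in milk fat and 1704 to 4496 FPKM in cell-free milk and had the same sign in 6 of 6 animals, with a log2 difference of -0.40 (SE 0.16, 95% interval -0.78 to -0.02) that missed the threshold (limma adjusted p = 0.0750). In milk cells GLYCAM1 was at 1128 to 3010 FPKM, below cell-free milk in each animal. LGB2, a beta-lactoglobulin (chromosome 15, 2731645 to 2735903), stood at -0.29 on the log2 scale (95% interval -0.77 to 0.19) and LTF, the iron-binding lactoferrin, at -0.18 (-0.45 to 0.10). LYZ, lysozyme, had a log2 fold change of 0.13 (-0.20 to 0.46) and SPP1, osteopontin, one of 0.16 (-0.10 to 0.43). Each of these 4 intervals holds 0.

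CSN2 nevertheless took a larger share of the FPKM in cell-free milk, and with it the milk protein transcripts as a group. The group held 68.2% ± 2.57 (SD, n = 6) of the total in cell-free milk and 59.4% ± 4.78 in milk fat, beside 71.6% ± 5.14 in milk cells and 74.7% ± 4.44 in biopsies. The share was 8.77 percentage points higher in cell-free milk, in 6 of 6 animals (same exact test, p = 0.031, adjusted p = 0.0417). The 2 CSN2 transcripts made up nearly all of this, at 41.8% ± 4.0 in cell-free milk and 33.3% ± 5.22 in milk fat, 8.51 points higher and in 6 of 6 animals. The other 7 held 26.3% ± 3.14 and 26.1% ± 1.91, with a difference of 0.266 points that was above 0 in 3 animals and below 0 in 3. These parts were looked at after the group's values were seen, and their differences were not tested. M2 had the lowest share of the whole group in both kinds (51.2% in milk fat and 63.4% in cell-free milk). With the PLIN2 transcripts left out of the total, an alternative chosen after seeing the data, the difference was 6.17 points and again in 6 of 6 animals. The 20 most abundant transcripts of each kind together held 74.1% ± 2.12 in cell-free milk and 70.9% ± 3.47 in milk fat, 3.13 points apart and higher in 6 of 6 animals (exact p = 0.031, adjusted p = 0.0417). Of these 20, 18 were common to both kinds, and the leading 5 came in the same order: CSN2, LALBA, LGB2, the other CSN2 transcript and CSN3. MT1E and FTL were among the 20 of cell-free milk only, and SERF2 and the least abundant PLIN2 transcript among those of milk fat only.

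Other abundant transcripts split by kind. MT1E, a metallothionein that binds metal ions, was higher in cell-free milk, at 2061 to 4215 FPKM (median 3689) against 1082 to 3420 FPKM in milk fat (median 1580). The log2 fold change was 0.79 (SE 0.21, limma adjusted p = 0.0196), and M4, with the highest milk fat level, was the 1 animal of 6 with a change below 0 (-0.25). In milk cells MT1E had 1475 to 2467 FPKM, below cell-free milk in each animal. Among the 3 milk fractions its levels as deposited were thus highest in cell-free milk in 6 of 6 animals, unlike those of PLIN2 or FABP3. The biopsies, at 770 to 4111 FPKM, were above cell-free milk in M5 and M6. The locus is short (chromosome 14, 120913971 to 120914157), metallothionein genes are alike in sequence, and how the reads were divided among them is not known. The call was lost without M1, M2, M3 or M6 (adjusted p of 0.0562, 0.0536, 0.0567 and 0.0598), without animal as a block (0.0506) and without the filter (0.0979), and the lowest adjusted p of any setting was 0.00559.

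TPT1, SERF2 and ATP5J2 were lower in cell-free milk in 6 of 6 animals. Changes of their size are common at this level. Of the 49 transcripts at 1000 FPKM and over, 49.0% were lower, at a median log2 fold change of -0.61. ATP5J2 (chromosome 12, 27428622 to 27428889), a subunit of mitochondrial ATP synthase, had 1457 to 2320 FPKM in milk fat and 1019 to 1782 FPKM in cell-free milk, with a log2 difference of -0.54 (SE 0.10, limma adjusted p = 0.00571). SERF2 (chromosome 7, 22185782 to 22186583) changed by -0.72 (SE 0.16, adjusted p = 0.0100), from 2870 to 3785 FPKM in milk fat to 1589 to 2854 FPKM in cell-free milk, a call lost without the filter (0.0653, against 0.00519 to 0.0333 otherwise). TPT1, a protein tied to translation and growth (chromosome 1, 175086475 to 175086994), changed by -0.43 (SE 0.11, limma adjusted p = 0.0153), a call lost without M2, M3 or M6 (0.0514, 0.0521 and 0.0540). Over all settings its adjusted p was 0.00819 to 0.126. The 19th most abundant transcript of cell-free milk, at chromosome 13 (85457958 to 85458977) and without a gene name at hand, was also lower in 6 of 6 animals. It had 2294 to 4926 FPKM in milk fat and 1735 to 3840 FPKM in cell-free milk, a log2 fold change of -0.66 (SE 0.18, limma adjusted p = 0.0189), a call lost without M6 (0.0519) and without the filter (0.117), against 0.00908 to 0.0426 otherwise. The ferritin chains FTH1 and FTL, B2M, the light chain of class I molecules, and CD24, a surface glycoprotein of epithelial and blood cells, were not called, at -0.33, 0.02, 0.16 and 0.14 (adjusted p of 0.0810, 0.929, 0.274 and 0.430). B2M, which nucleated cells of most kinds express, had 1668 to 2043 FPKM in cell-free milk, 1166 to 2003 FPKM in milk fat and 2188 to 4849 FPKM in milk cells, where each sample was above those of both other kinds.

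The 6 short non-coding RNA transcripts of 75 to 94 bases, shorter than the reads of 100 bases, varied widely from animal to animal. The study reports that its abundant non-coding transcripts, to which these were tied, are homologous to human ribosomal RNA. Their summed level was 7737 to 23157 FPKM in cell-free milk (median 14737) and 13431 to 23378 FPKM in milk fat (median 19947). M2 had the highest sum in cell-free milk and M1 the lowest. Only the transcript at chromosome X (94021675 to 94021766) was called, with a log2 fold change of -0.78 (SE 0.27, limma adjusted p = 0.0469) in 5 of 6 animals, and its call was lost without M1, M3, M4 or M6 (adjusted p of 0.123, 0.0686, 0.0813 and 0.0859), without animal as a block (0.0985) and without the filter (0.221), the lowest of any setting being 0.0286. The other 5 had log2 fold changes from -0.74 to 0.22. All transcripts that span fewer than 100 bases, 2057 in number, held 1.46% ± 0.529 (SD, n = 6) of the FPKM in cell-free milk and 1.88% ± 0.347 in milk fat, lower in 4 of 6 animals (exact test as above, p = 0.188, adjusted p = 0.188).

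Over all transcripts, 2737 were higher and 3258 lower in cell-free milk out of 12730 tested (limma, adjusted p under 0.05), which is 21.5% and 25.6%. The differences were small: the median absolute log2 fold change of the 5995 called was 0.48, and 5172 of them had the same sign in 6 of 6 animals. The calls rest on the same 6 differences, so that this agreement in sign is partly set by the test. Higher calls made up 45.7% of the calls, and 57.5% with FPKM as deposited (3198 higher and 2363 lower), where the median log2 fold change of all transcripts was 0.08 in place of -0.02. The size of the difference varied by animal. The median absolute log2 difference was 0.48 in M4, 0.39 in M2, 0.31 in M1, 0.30 in M3 and M6 and 0.19 in M5. In M4, 10.9% of the tested transcripts were more than 2-fold lower in cell-free milk, and in M5 1.27%. The animals' log2 differences, taken from separate samples, were related to each other across the 12730 transcripts, with Pearson correlations of 0.30 to 0.69 over the 15 pairs of animals (median 0.51), which describes transcripts and not replicates.

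Abundant transcripts were more often lower in cell-free milk than scarce ones. Among the 4220 transcripts with a mean under 3 FPKM, 24.7% were higher and 10.8% lower, at a median log2 fold change of 0.10. Among the 465 with 100 to 1000 FPKM, 6.02% were higher and 70.8% lower, at a median of -0.58, and the median had the same sign in each of the 6 animals (-1.02 in M4 to -0.25 in M5). The 49 transcripts at 1000 FPKM and over had a median of -0.61 (49.0% lower), and the milk protein transcripts are among those that lie above it. Spearman's rho between level and log2 fold change was -0.28 across the 12730 transcripts, given as a description without a test.

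**Figure D3:**
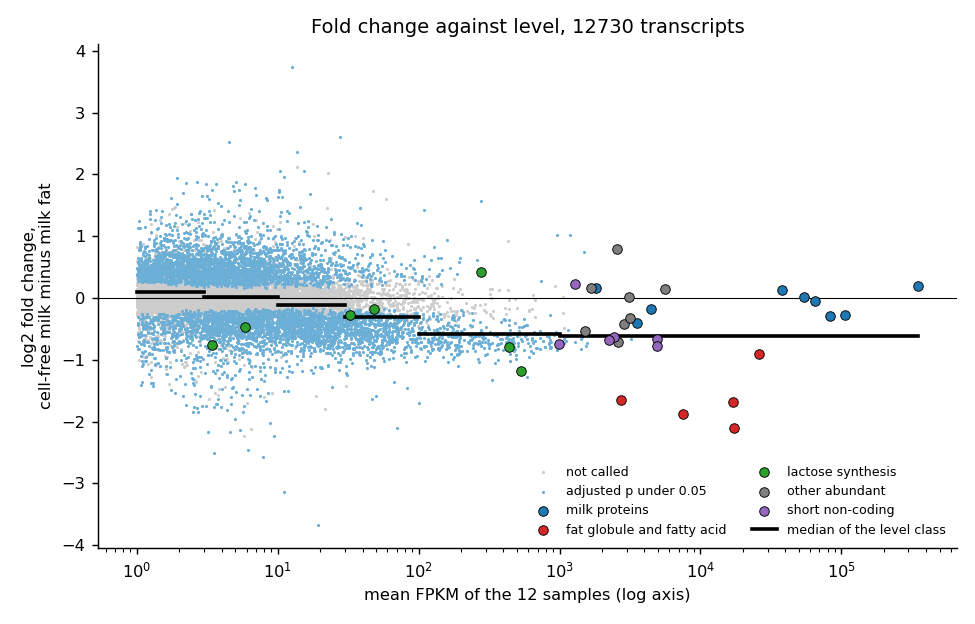
Log2 fold change from milk fat to cell-free milk against mean FPKM of the 12 samples (log axis) for the 12730 transcripts tested, called transcripts in blue, named transcripts as large points, and the median of each level class as a black bar. The bars step down from 0.10 under 3 FPKM to -0.61 at 1000 FPKM and over, and PLIN2 lies lowest among the abundant transcripts.

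Transcripts that span 200 to under 10000 bases of the genome, introns included, were more often lower than higher in cell-free milk, and those from 50000 bases more often higher than lower. Of the 870 transcripts that span 200 to under 1000 bases, 6.44% were higher and 47.6% lower (median log2 fold change -0.33). The shorter classes were called less often: of the 124 that span 100 to under 200 bases, 3.23% were higher and 20.2% lower (median -0.25), and of the 72 under 100 bases, 0 were higher and 2.78% lower (median 0.09). Of the 2823 that span 50000 to under 300000 bases, 35.9% were higher and 12.2% lower (median 0.17). The medians of the class from 200 to under 1000 bases, called short from here, and of this long class had the same sign in 6 of 6 animals, from -0.56 to -0.15 and from 0.06 to 0.28. Short transcripts had higher levels (a median of 13.2 FPKM against 3.70 FPKM), so the classes were also compared among transcripts with a mean of 3 to under 30 FPKM. There, 8.67% were higher and 40.4% lower of 369 short transcripts, and 37.7% were higher and 14.8% lower of 1526 long ones. In loci with no overlapping transcript, the medians were -0.34 and 0.16 for the same classes. Spearman's rho between span and log2 fold change was 0.34 across transcripts. Whether RNA length, number of exons, integrity of the RNA or gene content lies behind this was not tested, as the exons and names of the transcripts were not used here.

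**Figure D4:**
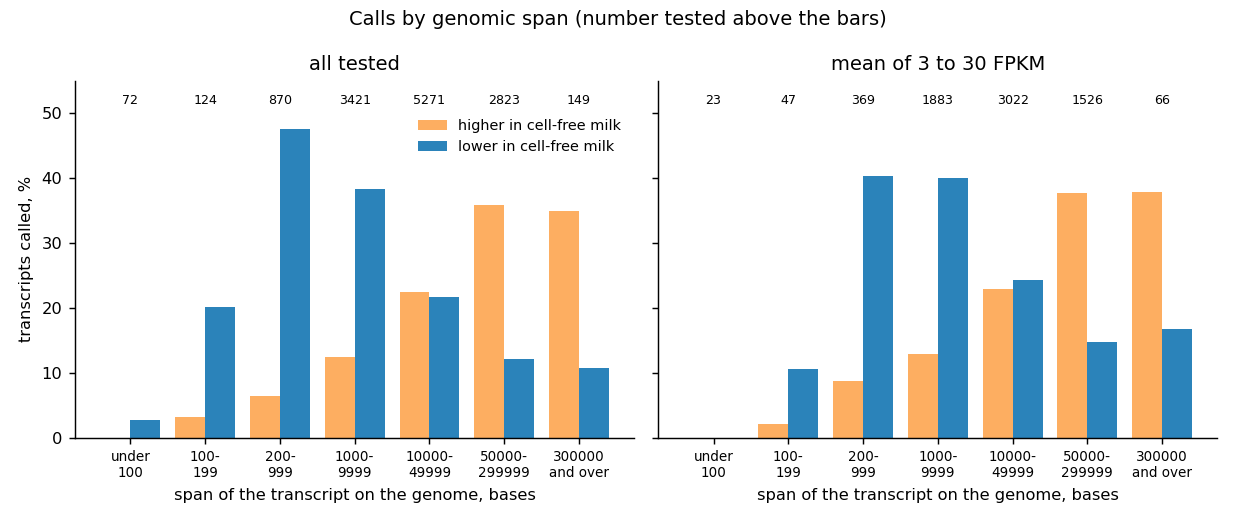
Share in percent of the tested transcripts called higher (orange) or lower (blue) in cell-free milk by the span of the transcript on the genome in bases, for all transcripts tested (left) and for those with a mean of 3 to 30 FPKM (right), with the number tested above each pair of bars. Lower calls prevail from 200 to under 10000 bases and higher calls from 50000 bases, in both panels.

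Changes of more than 3-fold were rare and were mostly those of transcripts that overlap another. At this threshold 32 transcripts were higher (0.251%) and 38 lower (0.299%). The counts depend on single animals: 19 were higher without M2, 19 without M4 and 49 without M5, and 21 were lower without M4. Of the 4503 tested transcripts in a locus of their own, 0 were among the higher by limma (0 also with an unadjusted p under 0.05) and 8 among the lower, 4 of which are the PLIN2 transcripts. When FPKM were summed over overlapping transcripts, a single locus was higher by more than 3-fold (0.0105% of 9555 loci) and 9 were lower (0.0942%). Of the 66 loci that held a transcript past 3-fold, 54 were called as sums, 7 of them by more than 3-fold. Of all 9555 loci, 56.0% were called as sums. Outside the named genes, the 4 transcripts with the largest changes in 6 of 6 animals had no gene name at hand. ENSMMUT00000019492 (chromosome 1, 185383238 to 185392409) was listed at or near 0 in each milk fat sample and at 6.97 to 58.2 FPKM in 5 cell-free milk samples, with M2 near 0 as well and its log2 difference at 0.00, yet the log2 value for its locus as a whole was -0.09 (limma adjusted p = 0.445). ENSMMUT00000043353 (chromosome 9, 6039743 to 6075747) had a mean of 21.2 FPKM in milk fat and 1.05 FPKM in cell-free milk, a log2 difference of -3.13 (adjusted p = 0.00363), and the value for its locus was -0.03 (adjusted p = 0.776).

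The other pair kept its direction in the sum. ENSMMUT00000029767 (chromosome 11, 46254793 to 46314039) had 9.65 to 85.8 FPKM in milk fat and from near 0 to 13.2 FPKM in cell-free milk, a log2 difference of -3.68 (limma adjusted p = 0.00306) that became -0.93 over its locus (adjusted p = 0.00122). ENSMMUT00000011390 (chromosome 1, 119357238 to 119374392) had a mean of 0.260 FPKM in milk fat and 8.78 FPKM in cell-free milk, a log2 difference of 2.53 (adjusted p = 0.00390) that became 0.47 over its locus (adjusted p = 0.00239). In 230 loci at least 1 transcript was called higher and another lower. How reads of such a locus were divided among its transcripts is an estimate, and the values of single transcripts are uncertain there.

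Transcripts that set milk cells apart from milk fat at day 30 were then followed in the day 90 comparison, which shares animals but no sample with them. In the 4 animals with both day 30 fractions, 77 transcripts were more than 3-fold higher in milk fat (0.567% of 13579) and 132 in milk cells (0.972%). Of the 77, 76 passed the filter on low FPKM at day 90, 64 were lower in cell-free milk and 0 higher by limma (0 higher also at an unadjusted p under 0.05), at a median log2 fold change of -1.27 against -0.02 over all. Of all transcripts tested, 25.6% were lower and 21.5% higher. With no filter, 53 of the 77 were lower, against 7.98% of all. The median of the 77 was below 0 in each animal, from -2.06 in M4 to -0.67 in M5. Of the 77, 4 are the PLIN2 transcripts. Without those, the remaining 73 summed to 739 to 1732 FPKM in milk fat, 358 to 622 FPKM in cell-free milk and 167 to 426 FPKM in milk cells, where each cell-free milk sample lay below every milk fat sample. Biopsies held 483 to 677 FPKM of these 73. Summed over loci, the median was -0.46, and for the 15 members in loci of their own it was -1.02 with 13 lower. Of all tested transcripts in loci of their own, 31.0% were lower.

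The 132 transcripts higher in milk cells at day 30 gave a less even picture. Of these, 76 passed the filter at day 90, and 44 were higher and 3 lower in cell-free milk, at a median of 0.97. Over all transcripts tested, 21.5% were higher and 25.6% lower. Members low in both fractions did not pass. Over all 132, with no filter, 29 were higher and 1 lower, against 7.12% higher of all, at a median log2 fold change of 0.10. Their summed level was 819 to 2579 FPKM in milk fat, 878 to 2576 FPKM in cell-free milk and 2889 to 9295 FPKM in milk cells. The sum was higher in cell-free milk than in milk fat in 5 animals and lower in M4, and below that of milk cells in each of the 6 animals. One member, the non-coding transcript of 80 bases at chromosome 2 (123178536 to 123178615), made up most of it, with 563 to 2351 FPKM in milk fat and 458 to 1982 FPKM in cell-free milk. Without this transcript, a choice made after seeing the data, the other 131 summed to 181 to 316 FPKM in milk fat, 363 to 594 FPKM in cell-free milk and 855 to 3829 FPKM in milk cells. Every cell-free milk sample was then above every milk fat sample, M4 included (591 against 227 FPKM), and below the milk cells of its animal. The median over members rested on overlapping transcripts: the 62 tested members in overlapping loci had a median of 1.21 with 42 higher, whereas the 14 in loci of their own had a median of -0.26 with 2 higher and 2 lower, and over locus sums the median was -0.01. Of all tested transcripts, 22.1% were higher in overlapping loci. In loci of their own, 20.4% were higher and 31.0% lower.

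**Figure D5:**
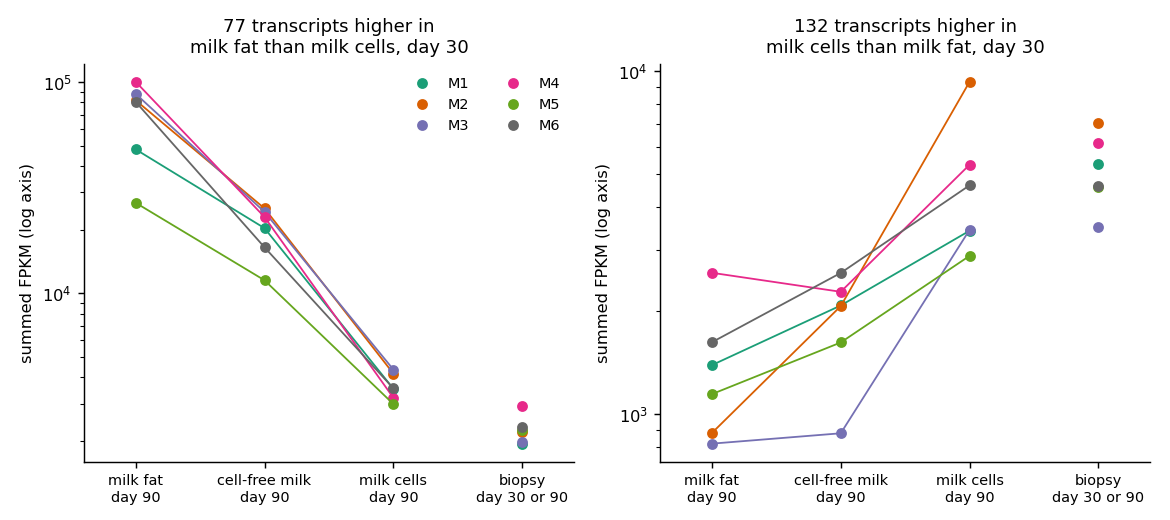
Summed FPKM (log axis) of the 77 transcripts more than 3-fold higher in milk fat (left) and the 132 more than 3-fold higher in milk cells (right) at day 30, in day 90 milk fat, cell-free milk and milk cells and in biopsies, with 1 point per sample and lines joining the day 90 samples of an animal. On the left, cell-free milk lies between milk fat and milk cells in each of the 6 animals, and the sums are made up mostly of PLIN2. On the right the 878 to 2576 FPKM of cell-free milk overlap the 819 to 2579 FPKM of milk fat. Both are made up mostly of 1 non-coding transcript, without which the sums do not overlap.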

How the data were processed

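The authors extracted RNA with a Qiagen kit, made TruSeq libraries with poly(A) selection, multiplexed them in batches and sequenced single reads of 100 bases on an Illumina HiSeq. They trimmed reads with Scythe and Sickle, mapped them to rheMac2 with TopHat and Bowtie, and estimated FPKM for Ensembl transcripts with Cufflinks, which divides reads among overlapping transcripts. FastQC, Bowtie, TopHat and Cufflinks are also in the submitters' processing notes, and their versions are not given in the sources used here. The FPKM as deposited are divided by length and library size and carry no read counts, so no counting interval was computed. Of the 108 columns, 102 match a sample and 6 were not used.

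Runs of a sample were averaged. Samples were brought to a common scale with median-of-ratios factors (0.867 to 1.20), 1 was added, and limma 3.58.1 (R 4.3.3) was fitted to the log2 values with animal as a block and a variance prior that follows the level. Transcripts with a mean of at least 1 FPKM over the 12 samples entered two-sided tests adjusted by the Benjamini-Hochberg method, and fold changes are on the log2(FPKM + 1) scale and understate those of low transcripts. A transcript was called at an adjusted p under 0.05 and counted separately at more than 3-fold. The fit was tested on simulated data. The pairing by animal comes from the labels: deviations from the group means correlated at 0.36 to 0.54 between the samples of an animal and at -0.27 to 0.12 between animals. Shares and correlations were tested by exact permutation over animals in Python 3.11.15 with numpy 2.4.6 and scipy 1.17.1.

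Named transcripts are those tied to a gene of the lists, the 20 most abundant in cell-free milk (19 with a gene name and 1 given by its position), and, per direction, the 2 that changed most among those called with 1 sign in 6 of 6 animals. Of the 35 ties, 7 use identifiers that the study gives and 28 the mean FPKM that it gives for named transcripts (22 coding within 1.52%, 6 non-coding within 24.2% and less certain). Leukocyte, epithelial, stromal, lipid synthesis, respiratory chain and ribosomal genes were not analysed here, as nothing at hand paired their names with transcripts, and 1 further gene of the lists is not reported here. The members and lists were chosen with earlier results of these data known. Alternatives covered scaling, pseudocount, filter, block, trend, locus sums, the total of the shares, the kind of correlation and each animal left out.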

Additional observations from a re-analysis of the deposited data

Results flagged for a closer look

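In groups of 6, a sample counts as far from the others when its gap to the nearest one exceeds Dixon's critical share of the group's range, which chance alone does in about 1 in 20 groups. This held for 9 of the 92 groups looked at. In cell-free milk, M4 was apart with the highest level of the larger CSN2 transcript (461314 FPKM), the lowest level of UGP2 (104 FPKM) and the lowest level of B4GALT1 (197 FPKM). In the same kind, M5 had the highest levels of LGB2 (105016 FPKM) and LTF (8851 FPKM), and M2 had the highest level of ENSMMUT00000029767 (13.2 FPKM). In milk fat, M2 was apart with FABP3 (47156 FPKM) and ATP5J2 (2320 FPKM), and M4 with MT1E (3420 FPKM). The part that any cause had in these values was not tested.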

How the results depend on the processing

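The number of transcripts higher in cell-free milk moved from 2737 to 588 with a mean of at least 10 FPKM (4029 tested, where 23.7% of the calls were higher) and to 1697 with no replicate block, and the number lower from 3258 to 1898 with a mean of at least 10 FPKM. With an animal left out, 1974 to 2636 were higher and 2472 to 3237 lower, and without M3, the Skim10m animal, 2314 and 2867. Past 3-fold, the 32 higher became 155 with a pseudocount of 0.1, 20 with no filter, 13 at 10 FPKM, 1 over locus sums, 0 in loci of their own, and 19 to 49 with an animal left out. The 38 lower became 121, 29, 12, 9, 8 and 21 to 57. The median of the day 30 list higher in milk cells moved from 0.97 to 1.97 with the pseudocount of 0.1, 0.10 with no filter, 1.54 at 10 FPKM and -0.01 over locus sums, and was 0.82 to 1.12 with an animal left out. That of the list higher in milk fat moved from -1.27 to -0.46 over locus sums, and was -1.36 to -1.14 with an animal left out. ENSMMUT00000019492 turned to -0.09 over its locus. The shares kept their direction in every setting run. With an animal left out the differences were 2.57 to 3.61 points for the 20 most abundant, -4.92 to -3.87 for PLIN2, 7.94 to 9.44 for milk proteins and -0.590 to -0.249 for short transcripts, and 5 animals cannot give an exact p under 0.0625. The same-animal excess in correlation was 0.00927 to 0.0108 with an animal left out. Of 488 further fits of the 35 named transcripts, 450 kept direction and side of the threshold, 23 lost a call and 15 gained one. With no replicate block 3 calls were lost (B4GALT1, MT1E and the chromosome X transcript) and with no filter 7 (2 of PLIN2, FABP3, TPT1, SERF2, MT1E and the chromosome X transcript). With FPKM as deposited, LYZ, SPP1 and B2M were called higher. The causes were not tested. FPKM carry no read counts, so that the limit set by depth on low transcripts is unknown.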
